A study of Rattus norvegicus with 18 samples.

Results

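The mitochondrial ribosomal protein genes encode the protein parts of the ribosome inside mitochondria. Their symbols start with Mrpl, for the large subunit, or Mrps, mostly for the small subunit. They were taken as every probe whose gene symbol in the array files, or whose current RefSeq symbol, starts with Mrpl or Mrps followed by a digit. This gave 90 probes for 74 genes, of 41012 distinct probes on the array. For 82 probes the name came from the probe's own RefSeq accession and for 8 from the file's symbol. All 90 probes were well above background in each brain area, none was saturated, and 1 spot of 1 array was lost to a scanner flag. One of the genes, named Mrps36 in the files, is now called Kgd4 and is a component of the alpha-ketoglutarate dehydrogenase complex rather than of the ribosome.

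The samples are brain RNA of 2 strains of rat selected for ethanol preference, WHP (high preferring) and WLP (low preferring). Male rats that had never received alcohol were used, and each sample is a pool of equal amounts of RNA from 3 rats. The 3 areas, hippocampus, nucleus accumbens and prefrontal medial cortex, each had 3 pool pairs, a WHP pool against a WLP pool, on 18 two-colour Agilent arrays in all. Each pool pair was hybridised on 2 arrays with the dyes swapped, and their mean is 1 replicate. A ratio here is log2 of the WHP signal over the WLP signal, and is negative where WHP had less. In such tissue samples, fewer cells of a type and less RNA per cell cannot be told apart. Striatum markers (10 genes, 9 of them detected in the hippocampus) had mean levels of 10.26 to 11.12 (log2) in the nucleus accumbens pool pairs, 10.26 to 10.90 in the prefrontal medial cortex and 8.75 to 9.09 in the hippocampus, and cortex markers (8 genes) 7.97 to 8.40, 10.13 to 10.44 and 10.34 to 10.43, so striatum markers did not set nucleus accumbens apart from prefrontal medial cortex. Strain differences were tested with limma over the 9 pool pairs, and p-values were adjusted by Benjamini-Hochberg over all detected probes, with a threshold of 0.05.

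Mitochondria keep a small genome whose messages, all for subunits of the respiratory chain and ATP synthase, are translated by this dedicated ribosome. Its RNA comes from the mitochondrial genome, whereas its proteins come from nuclear genes and are imported. Part of the proteins have counterparts in bacterial ribosomes, and the rest are found in mitochondria only. Neurons depend on the respiratory chain for most of their ATP.

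The probes that carry the strain differences, and the pair of probes that disagree most within a gene, are shown first because each value below is a measurement of these short sequences. Positions are given on rn4, the build that the files name. All are lower case with nothing marked, 5′ to 3′. The whole probe is given where it reads through an open frame near the start of the transcript, and its first 30 of 60 bases otherwise.
Mrpl52, chr15:32491804-32491863, plus strand: tattgatagcaaaagacctcaggcaccggg
Mrpl4, chr8:20031782-20031841, plus strand: gatctcttttgtcacattaaaaatgaaccc
Mrpl43, chr1:250072915-250072974, minus strand: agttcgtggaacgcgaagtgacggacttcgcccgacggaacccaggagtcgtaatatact
Mrpl18, first probe, chr1:42116388-42116447, plus strand: gtccccattcttggacatgagatgtattta
Mrpl18, second probe, chr1:42113999-42114058, plus strand: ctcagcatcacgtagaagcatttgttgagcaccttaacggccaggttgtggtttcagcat
The second Mrpl18 probe starts at base 346 of its transcript and the first at base 867.

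Mrpl52 and Mrpl4 were lower in WHP, and Mrpl43 was higher in WHP, in every pool pair of all 3 areas. In the mean over the areas, 5 of the 90 member probes passed the test, 1 higher and 4 lower, where 3.03% of all 28377 tested probes passed. The others that passed were Mrpl54 and Mrps35, both with small ratios. In single areas the calls were 1 lower in the nucleus accumbens (0.308% of all probes passed), 2 lower in the prefrontal medial cortex (0.0974%) and 2 lower in the hippocampus (0.273%). None was higher by limma's adjusted p in an area, where an unadjusted p under 0.05 gave 30, 11 and 1 higher and 4, 4 and 7 lower. These were 37.8%, 16.7% and 8.89% of members, against 17.1%, 8.97% and 7.04% of all probes, so the hippocampal share was near that of the array. The arrays of nucleus accumbens pair 3 and hippocampus pair 2 correlated little between dye orientations. Without these 2 pool pairs 0 members passed in each area and 3 in the mean, where 1.13% of all probes passed. In the nucleus accumbens, prefrontal medial cortex and hippocampus 0.00662%, 0.0487% and 0.0115% of all probes then passed. No member's ratio passed limma's test of a difference between areas, and no probe of the array did; at an unadjusted p under 0.05 the members counted 2 between nucleus accumbens and prefrontal medial cortex, 11 between hippocampus and nucleus accumbens and 3 between hippocampus and prefrontal medial cortex. These were 2.22%, 12.2% and 3.33% of members, against 3.64%, 9.33% and 4.04% of all probes.

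Mrpl52 encodes a protein of the large subunit that has no bacterial counterpart. Its ratios were -0.63, -0.55 and -0.53 in the nucleus accumbens pool pairs, -0.80, -0.46 and -0.48 in the prefrontal medial cortex, and -0.58, -0.34 and -0.61 in the hippocampus. All 9 were negative, and the areas overlapped. The mean was -0.55 (SE 0.043, n = 9 pool pairs, limma adjusted p = 0.0006917), which is 1.47-fold lower in WHP. Within the areas the ratios were -0.57 (limma adjusted p = 0.03079), -0.58 (limma adjusted p = 0.04082) and -0.51 (limma adjusted p = 0.04116). The call in the mean held in 24 of 25 other ways of processing, and the calls in single areas in 12 of 27, 6 of 27 and 7 of 26. In the nucleus accumbens it was lost without nucleus accumbens pair 2 or 3, prefrontal pair 3 or hippocampus pair 1 or 3 (limma adjusted p from 0.05384 to 0.1253). In the prefrontal medial cortex it was lost without any 1 of the 9 pool pairs (0.06499 to 0.2364), and in the hippocampus without any but prefrontal pair 1 (0.06308 to 0.2828).

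Mrpl4, a large subunit protein with a bacterial counterpart that lines the exit tunnel, had ratios of -0.19, -0.38 and -0.20 in the nucleus accumbens. In the prefrontal medial cortex they were -0.46, -0.40 and -0.33, and in the hippocampus -0.41, -0.38 and -0.50. The nucleus accumbens held the values nearest 0, but its second pool pair lay among those of the other areas. The mean was -0.36 (SE 0.028, n = 9 pool pairs, limma adjusted p = 0.0006917), or 1.28-fold lower in WHP. It passed in the prefrontal medial cortex at -0.40 (limma adjusted p = 0.0339) and the hippocampus at -0.43 (limma adjusted p = 0.01344), and not in the nucleus accumbens at -0.26 (limma adjusted p = 0.07887). The mean held in 24 of 25 other ways of processing, and the 2 single-area calls in 10 of 27 and 15 of 26. The prefrontal call was lost without nucleus accumbens pair 1 or any prefrontal or hippocampus pair (limma adjusted p from 0.05051 to 0.2364), and the hippocampal call without any hippocampus pair (0.104 to 0.1166).

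Mrpl43, a large subunit protein found in mitochondria only, was the member higher in WHP. Its ratios were 0.29, 0.19 and 0.32 in the nucleus accumbens, 0.19, 0.42 and 0.46 in the prefrontal medial cortex and 0.22, 0.40 and 0.27 in the hippocampus. All 9 were positive and the areas overlapped. The mean was 0.31 (SE 0.035, n = 9 pool pairs, limma adjusted p = 0.003539), or 1.24-fold higher in WHP, and no single area passed (limma adjusted p = 0.1109, 0.1104 and 0.1427). The call in the mean held in 24 of 25 other ways of processing.

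**Figure D1:**
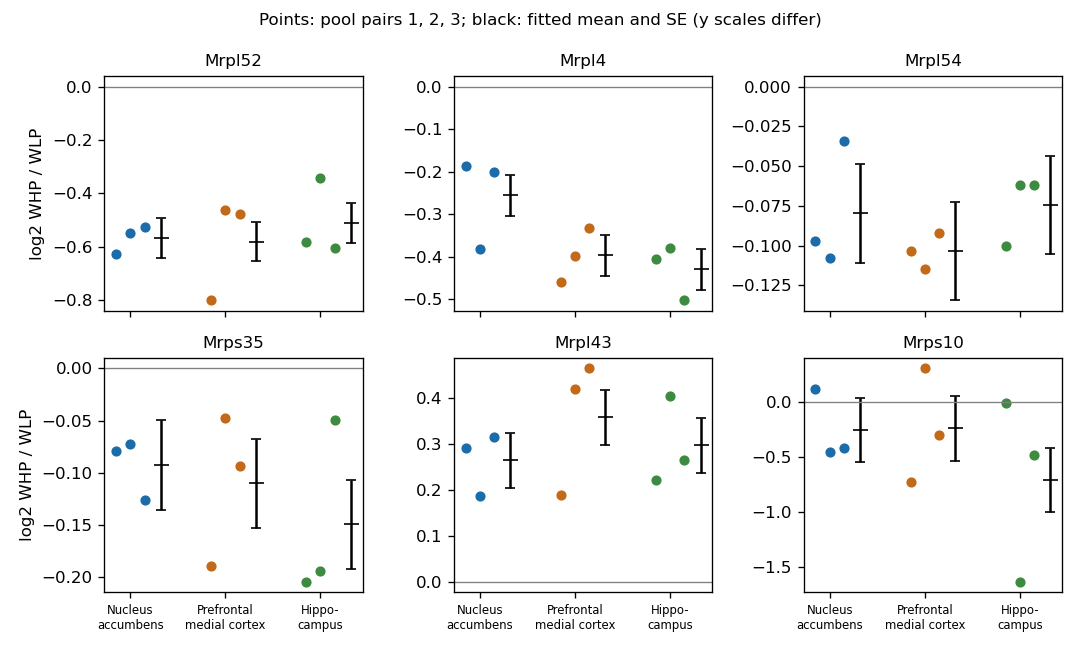
Log2 ratio of WHP over WLP (vertical axis) of 6 member genes in the 3 areas (horizontal axis). Coloured points are pool pairs 1 to 3, and the black mark with bars is the fitted mean with its SE. Mrpl52 and Mrpl4 lie below 0 and Mrpl43 above 0 in all 9 pool pairs, while Mrps10 is spread from 0.31 down to -1.64.

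Mrpl54, of the large subunit, was negative in all 9 pool pairs, between -0.11 and -0.034, with a mean of -0.086 (SE 0.018, limma adjusted p = 0.04221). Mrps35, of the small subunit, was also negative in all 9, between -0.20 and -0.048, with a mean of -0.12 (SE 0.025, limma adjusted p = 0.04498). Both lay close to the threshold, and the calls held in only 5 and 4 of 25 other ways of processing. Leaving out any 1 pool pair ended both calls.

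Mrps10, a small subunit protein with a bacterial counterpart, had the most extreme single value. Its ratios were 0.12, -0.45 and -0.42 in the nucleus accumbens, -0.73, 0.31 and -0.30 in the prefrontal medial cortex and -0.009, -1.64 and -0.48 in the hippocampus. The low value belongs to hippocampus pair 2, where both dye-swapped arrays gave it, at -1.45 and -1.82. Over all probes the arrays of that pool pair correlated at -0.020. Over the member probes, which include Mrps10 with this extreme value, they correlated at 0.537. The mean of Mrps10 was -0.40 (SE 0.17, limma adjusted p = 0.2557), and its SE was the largest of the 90 probes.

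Most members were shifted a little towards WHP in the nucleus accumbens. There 72 of the 90 probes were positive and 18 negative, with a median of 0.097 where all tested probes had a median of 0.0009. At an unadjusted p under 0.05, 30 members were higher and 4 lower, 37.8% of members against 17.1% of all probes. The shift was not shared by the pool pairs: the member medians were 0.14 in pair 1, -0.042 in pair 2 and 0.14 in pair 3, with 81, 31 and 71 of 90 probes positive. Without pair 1 the median was 0.062, without pair 2 it was 0.14, and without pair 3, whose dye-swapped arrays correlated at only 0.027 over all probes, it was 0.061. Centring each array on its median in place of loess gave 0.21. Oligodendrocyte markers, 10 genes that were all tested, had medians of -0.54, 0.23 and -0.25 in the same pool pairs, and meninges and fibroblast markers had 1.31, 2.75 and -1.07. Cortex markers had 0.35, -0.64 and 0.063, with the same signs as the member medians, and 5 of 8 were positive in the area. Striatum markers had -0.24, -0.69 and -0.025, with 1 of 10 positive in the area. None of these marker genes passed the test in the nucleus accumbens, and their part in the shift was not tested.

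In the prefrontal medial cortex 57 members were positive and 33 negative, with a median of 0.030 and pool pair medians of -0.021, 0.072 and 0.042. Without pair 2 the median was 0.011 and without pair 1 it was 0.054. Oligodendrocyte markers (-0.79, 0.46 and 0.33) and striatum markers (-0.79, 0.37 and 0.43) had the same signs as the members in these pool pairs. So did choroid plexus and ependyma markers (-0.49, 2.26 and 0.088). Neuron, astrocyte, microglia, meninges and fibroblast, cortex (0.74, -0.57 and 0.0031) and hippocampus markers did not in all 3 pool pairs. The part of these markers was not tested. In the hippocampus 41 were positive and 49 negative, with a median of -0.0061 and pool pair medians of -0.022, -0.0044 and -0.0037. Array median centring moved the hippocampal median to -0.17, with 7 of 90 probes positive, against a median of -0.018 for all probes. A direction for the hippocampal members as a group was therefore not settled by these arrays. Oligodendrocyte, meninges and fibroblast, and choroid plexus and ependyma markers were each positive for 10 of 10 genes there, with medians of 0.33, 0.42 and 0.84. Neuron markers (median -0.089, 1 of 9 positive) and striatum markers (median -0.35, 2 of 9 positive) went the other way. By pool pair the medians were -0.12, 0.067 and -0.19 for neuron and 0.090, -0.90 and -0.45 for striatum markers. Meninges and fibroblast markers had 1.13, -0.077 and 0.48. Oligodendrocyte markers, and choroid plexus and ependyma markers, had positive medians in all 3 pool pairs. None of these marker genes passed in the hippocampus, and their part was not tested. Over the mean of the areas, 68 members were positive, with a median of 0.040. It was 0.027 without nucleus accumbens pair 1, 0.025 without nucleus accumbens pair 3 and 0.023 without the 2 pool pairs of low dye-swap correlation.

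**Figure D2:**
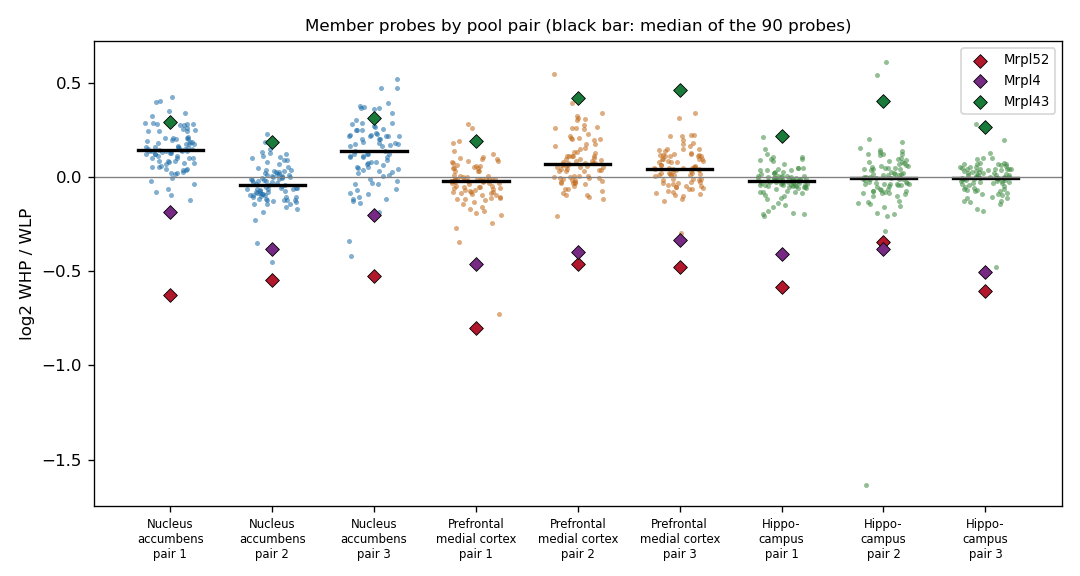
Log2 ratio of WHP over WLP (vertical axis) of the 90 member probes in each of the 9 pool pairs (horizontal axis). Small points are probes, black bars are medians, and diamonds mark Mrpl52, Mrpl4 and Mrpl43. The bar of nucleus accumbens pair 2 lies at -0.042, below those of pairs 1 and 3, and the diamonds of Mrpl52 and Mrpl4 lie below their bar in all 9 pool pairs.

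The groups of ribosomal proteins are given by their counts, and differences between the groups were not tested. The large subunit groups also hold proteins whose symbols start with Mrps. Of 34 probes for large subunit proteins with bacterial counterparts, 26 were positive in the mean, with a median of 0.040, and of 24 for large subunit proteins found only in mitochondria, 20 were positive, with a median of 0.047. Of the 19 small subunit probes with bacterial counterparts 16 were positive, with a median of 0.031, and the 12 found only in mitochondria had 0.0085, with 6 positive. The 4 other calls besides Mrpl4 lay in the groups found only in mitochondria, 3 in the large and 1 in the small subunit.

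In the nucleus accumbens 6 probes went against the positive median in all 3 pool pairs, those of Mrpl52, Mrpl4, Mrps35 (-0.092) and Mrpl54 (-0.080) and 1 of 2 probes each of Mrps21 (-0.098) and Mrpl40 (-0.062). In the prefrontal medial cortex 11 probes did so, the largest being those of Mrpl52, Mrpl4, Mrps35 (-0.11) and Mrpl23 (-0.10). In the hippocampus, where the median was slightly negative, 14 probes were positive in all 3 pool pairs, the largest being those of Mrpl43, Mrpl18 (0.18), Mrpl16 (0.10) and Mrpl11 (0.089). Such probes were not counted over the whole array, so these counts were not set against a share of all probes. Among the genes named here, only Mrpl52 and Mrpl4 passed the test in an area. The largest ratios that were positive in each of the 3 pool pairs were those of Mrpl18 (0.28), Mrpl43, Mrpl47 (0.25) and Mrpl22 (0.24) in the nucleus accumbens. In the prefrontal medial cortex Mrpl18 (0.29), Mrpl42 (0.26) and Mrpl19 (0.18) followed Mrpl43. None of these passed the test in that area.

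**Figure D3:**
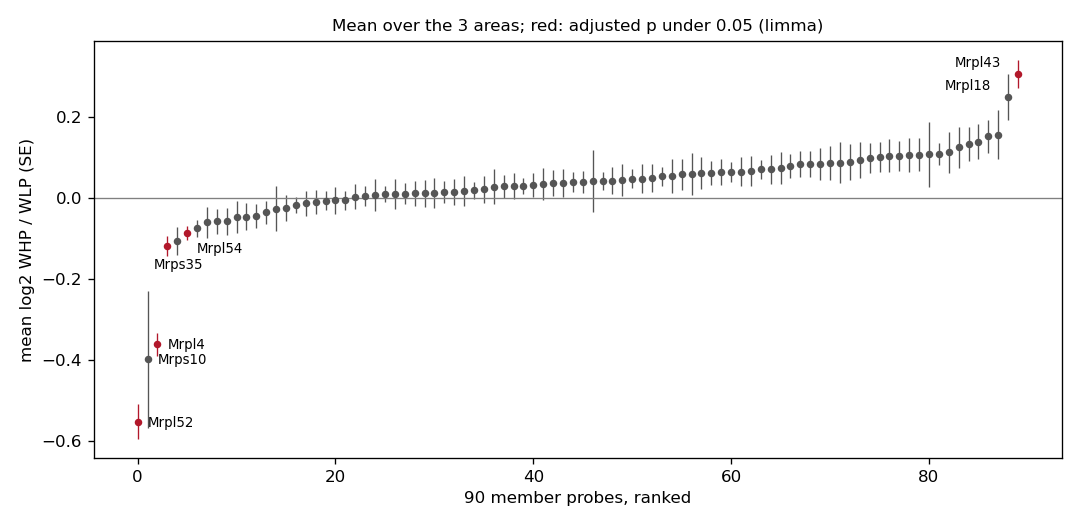
Mean log2 ratio of WHP over WLP over the 3 areas with its SE (vertical axis) for the 90 member probes in rank order (horizontal axis). Red marks the 5 probes past the test. 68 of the 90 probes lie above 0, with Mrpl52 lowest and Mrpl43 highest.

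Of 14 genes with more than 1 probe, 12 had probes of 1 sign in the mean. The gap between probes was under 0.1 for 12 of them, with a median of 0.029, but most member ratios were themselves smaller than 0.1. For 3 of the 14, Mrpl34, Mrps21 and Mrps33, the files place the probes on opposite strands, so they may not read the same transcript. The widest gap was that of Mrpl18, a large subunit protein with a bacterial counterpart. Its first probe shown above read 0.25 (SE 0.056, limma adjusted p = 0.05623), positive in 9 of 9 pool pairs. Its second read 0.078 (SE 0.030, limma adjusted p = 0.2092), positive in 7 of 9. The 2 probes shared a sign in 7 of 9 pool pairs. The Mrpl40 probes came next, at -0.0058 and 0.11, and shared a sign in 4 of 9. Mrpl52, Mrpl4 and Mrpl43 have 1 probe each, so no second probe measures their differences.

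**Figure D4:**
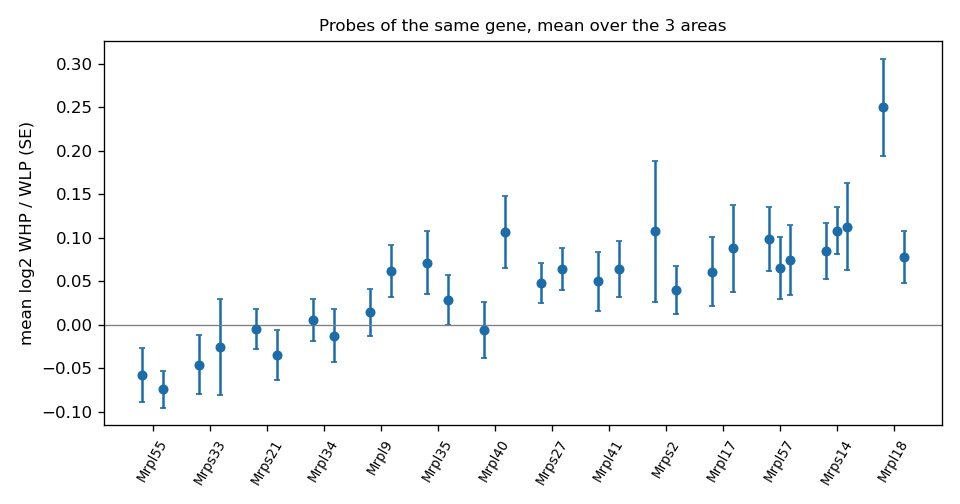
Mean log2 ratio of WHP over WLP over the 3 areas with its SE (vertical axis) for each probe of the 14 genes with more than 1 probe (horizontal axis). The probes of Mrpl18 are farthest apart, at 0.078 and 0.25.

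Genes that lie next to the called members were looked at on the rn4 positions of the files. Of 14 probes within 250 kb of Mrpl43, 1 passed in the mean, for Twnk, the mitochondrial DNA helicase. It lies 6.1 kb away, next to Mrpl43 in the RefSeq gene table for GRCr8, and went the other way, at -0.15 (SE 0.029, limma adjusted p = 0.02859) and negative in all 9 pool pairs. A second Twnk probe, 0.6 kb from that of Mrpl43, read -0.039 (limma adjusted p = 0.593). Of 21 probes near Mrpl52, 3 passed, at 0.22 for Haus4 and at 0.24 and -0.34 for 2 probes that were not named. None passed of 23 probes near Mrpl4 (lowest limma adjusted p = 0.1093), of 35 near Mrpl54 (0.1644) or of 9 near Mrps35 (0.2178). The probes near Mrpl54 ran from -0.16 to 0.040 with a median of -0.032, so that its own ratio lay within their range.

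Promoter sequences of 60 of the 74 genes were in the RefSeq table for GRCr8, from 250 bases before to 50 after the start. An ETS-type motif, CCGGAAG on either strand, was found in 20 of the 60 (33.3%) and in 9.2% of 27457 promoters. An NRF-1-type motif, GCGCA and GCGC with any 1 base between them, on either strand, was found in 10 (16.7%) and in 4.7% of all. Of the members past the test, Mrpl43, Mrpl54 and Mrps35 gave no match, either because there was none or because their promoter was missing. Twnk, the neighbour of Mrpl43, also had ETS-type matches. A tie between motif and strain ratio was not tested. The ETS-type matches of Mrpl52 and Mrpl4, the members with the lowest means past the test, are shown in capitals, as matches of letters only.
Mrpl52, starting 49 bases before the gene's start: caagatgtcggCTTCCGGttttccccggca
Mrpl52, starting 1 base after the gene's start: agccacgcccaCTTCCGGtttctttgctcc
Mrpl4, at the gene's start: tcattggtttgCTTCCGGagcccgctctcc

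Among the other genes of mitochondrial translation and DNA copying, 2 passed the test in the mean, where 3.03% of all probes passed. Of 5 mitochondrial ribosomal proteins with other names, 1 passed in the mean, Gadd45gip1, at 0.17 (SE 0.036, limma adjusted p = 0.04383), positive in 9 of 9 pool pairs. None passed of 17 measured genes for assembly of the mitochondrial ribosome and modification of its RNA (median 0.026), of 15 translation factors (median -0.0045) or of 15 mitochondrial aminoacyl-tRNA synthetases (median 0.017) by limma's adjusted p, while an unadjusted p under 0.05 gave 5 higher and 1 lower, 1 higher and 1 lower, and 3 higher and 2 lower, where 18.6% of all probes reached it. Of 8 genes for transcription and copying of mitochondrial DNA, Twnk alone passed. The lowest p-values in the lists without a call were those of Vars2 at -0.082 (limma adjusted p = 0.0575), a synthetase, and Guf1 at 0.13 (limma adjusted p = 0.05871), a translation factor.

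Channel level, the mean log2 signal of both strains after scaling the arrays to a common distribution, was compared between areas. Nucleus accumbens and prefrontal medial cortex share slides, while hippocampus was on slides and in a scan session of its own, so for hippocampus area and scan cannot be told apart. Member levels ran from 6.79, for 1 of the 2 Mrps21 probes on opposite strands, to 14.15 for Mrps34 in the nucleus accumbens. Different probes are not compared with each other. Between nucleus accumbens and prefrontal medial cortex, 26 members were higher and 13 lower, 39 of 90 where 52.1% of all probes passed, and none differed by 1 or more on the log2 scale (2.2% of all probes did). Between hippocampus and nucleus accumbens 28 were higher and 37 lower (76.4% of all probes passed), and 1 differed by at least 1 (8.52% of all). Between hippocampus and prefrontal medial cortex 33 were higher and 25 lower (74.1% of all), none by 1 or more (6.51% of all).

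Mrps5, a small subunit protein with a bacterial counterpart, had the largest difference. Its level was 9.39, 9.42 and 9.46 in the nucleus accumbens, 9.52, 9.68 and 9.60 in the prefrontal medial cortex and 10.49, 10.56 and 10.40 in the hippocampus, which did not overlap with the others. It was 1.06 higher in hippocampus than in nucleus accumbens (limma adjusted p = 1.873e-07) and 0.88 higher than in prefrontal medial cortex (limma adjusted p = 7.42e-07). Mrpl4, lower in WHP in every pool pair, also differed between areas, at a mean level of 10.98 (SD 0.059, n = 3) in the nucleus accumbens, 11.27 (SD 0.093) in the prefrontal medial cortex and 11.76 (SD 0.064) in the hippocampus. Mrpl40 (0.64, for 1 of its probes) and Mrps7 (0.61) were also higher in hippocampus than in nucleus accumbens. Mrpl10, a large subunit protein with a bacterial counterpart, was 0.84 lower there, Mrps34 0.63 lower, Mrps28 0.59 lower and Mrpl50 0.57 lower. Of these 8, Mrps34, Mrps28 and Mrpl50 no longer passed with array median centring of the levels.

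**Figure D5:**
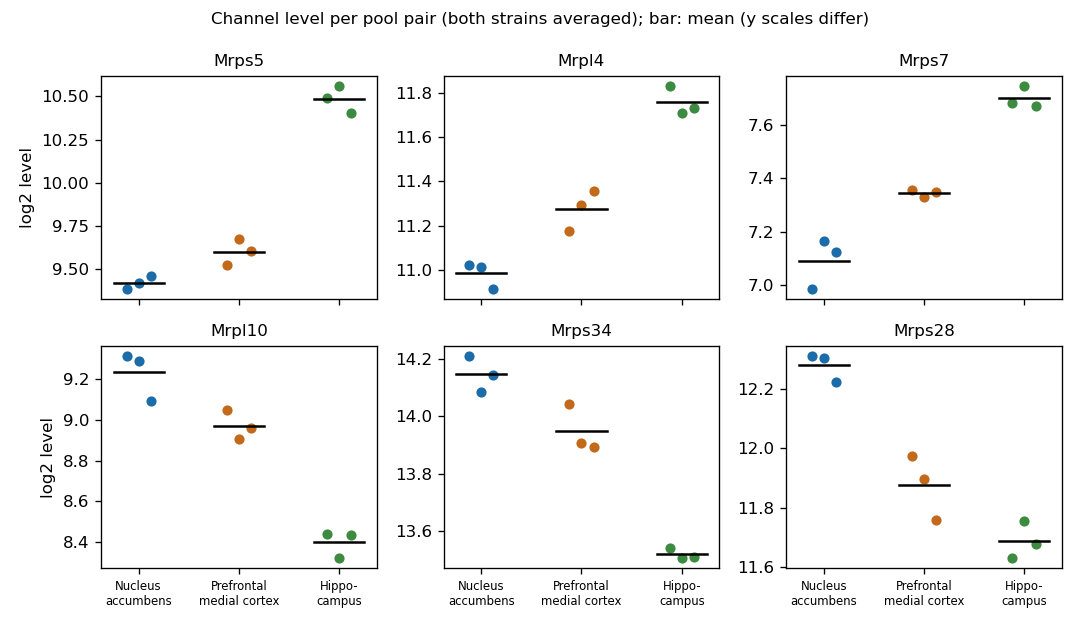
Channel level on the log2 scale (vertical axis) of 6 member genes in the 3 areas (horizontal axis). Points are pool pairs, and bars are means. Mrps5 sits between 10.40 and 10.56 in the hippocampus and at 9.68 or below elsewhere, while Mrpl10, Mrps34 and Mrps28 are lowest in the hippocampus.

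Between nucleus accumbens and prefrontal medial cortex, measured on the same slides, Mrps28 was 0.40 higher in the nucleus accumbens (limma adjusted p = 0.0004318), with differences of 0.34, 0.41 and 0.46 on the 3 slides. Mrpl30 was 0.39 higher, Mrpl13 0.36 and Mrpl19 0.34. Mrpl38 was lower by 0.33, on all 3 slides, Mrpl40 by 0.30 for 1 probe, Mrpl4 by 0.29 and Mrps18a by 0.29. With array median centring of the levels no member passed in this comparison, where 6.01% of all probes did.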

How the data were processed

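Spot intensities of 18 two-colour arrays (mean signal and median local background, both channels) were deposited, per the file headers, as scanner output of Agilent Feature Extraction 10.10.1.1. A deposited table of values holds 1 log2 ratio per spot and array. Set against the scanner's processed signal intensities, its sign is WHP over WLP on all 18 arrays, its column medians run from -0.0111 to 0.0213, and how it was normalized is not given in the sources used here. Its correlation with the log2 ratio of those signals ran from 0.624 to 0.9811 in absolute size. The lowest were 0.624 on array 1 of prefrontal pair 1 and 0.7594 on array 1 of hippocampus pair 3. With limma 3.58.1 in R 4.3.3, signals were background-corrected (normexp, offset 50), normalized by loess, cleared of control and non-uniform spots, turned to WHP over WLP by the labels' dyes and averaged over spots and the 2 arrays of a pool pair. The offset pulls ratios of dim spots towards 0. A probe counted as detected when well above background in 1 strain's channel on at least 4 of 6 arrays of the area. Tests used lmFit and eBayes with 1 coefficient per area (6 residual degrees of freedom), two-sided. The number of arrays limits the precision.

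Named genes were those past the test, the 4 largest ratios in each direction with 1 sign in all pool pairs, members against the median, the 5 widest probe gaps and the 4 largest level differences in each direction. The members and lists were chosen with earlier results of these data known. The labels call pool pairs biological replicates. The fit was tested on simulated data. Alternatives varied background correction, scaling, filter, variance model, dye, replicate unit, pairing, slide and pool pairs.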

Additional observations from a re-analysis of the deposited data

How the results depend on the processing

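The number of arrays limits all of this: each area has 3 pool pairs, and signals well above background do not make up for that. The calls of Mrpl52, Mrpl4 and Mrpl43 in the mean held in all alternatives run except limma's trend and robust estimate, which called 0 of 28377 probes. The rest of the calls depended on the setting, and the cause was not tested. The reported counts were 1, 2 and 2 in the areas, in the order used here, and 5 in the mean. In the nucleus accumbens, 0 members were called with scanner processed signals, no background subtraction, array median centring, trend and robust, each area alone, outlying local backgrounds replaced, the 2 pool pairs of low dye-swap correlation left out, or the first scan session alone. Of all probes at most 0.397% passed in these settings, and 0 with trend and robust or each area alone. With 18 arrays singly 5 members were called in the nucleus accumbens, where 3.94% of all probes passed. In the prefrontal medial cortex it was 1 of the reported lower calls with offset 10, no detection filter or WHP in Cy3 alone, 1 higher call of another member with processed signals, and 0 with median centring, the deposited value table, trend and robust, each area alone, the low pool pairs left out or the first session. In the hippocampus it was 1 with no background subtraction, offset 10 or backgrounds replaced, and 0 with processed signals, median centring, the value table, trend and robust, each area alone, WHP in Cy5 alone or the low pool pairs left out. In the mean it was 3 with processed signals, no background subtraction, offset 10, median centring, the value table, no filter, backgrounds replaced or the low pool pairs left out. Of all probes 1.075% to 2.92% passed in these settings. It was 0 with trend and robust, 11 from the Cy5 orientation of WHP, 13 from the Cy3 orientation, and 9 with 18 arrays singly. In the last 3 of these settings 6.77%, 5.145% and 8.22% of all probes passed. The settings named for the prefrontal medial cortex passed at most 0.240% of all probes, and those named for the hippocampus at most 0.377%. Trend and robust passed 0 probes in each area, and each area alone passed 1 in the prefrontal medial cortex. Leaving out 1 pool pair gave 0 to 3, 0 to 1, 0 to 2 and 3 to 7. The shares of all probes were then 0.0827% to 3.07%, 0.00348% to 0.157%, 0.0259% to 0.328% and 1.24% to 6.16%. The replacement of backgrounds, the removal of low pool pairs and the single session were chosen after seeing the data.

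The replicate block, a term for the pool pair number, gave 0 calls in each area and 3 in the mean, where 2.00% of all probes passed. In the nucleus accumbens, prefrontal medial cortex and hippocampus 0.0397%, 0.0139% and 0.0662% of all probes passed with it. Same-numbered pool pairs did not deviate together across areas (correlations from -0.381 to 0.166 for ratios), so the numbers were not taken to pair the samples. These correlations do not show that the areas hold different rats, which the labels leave unsaid.

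Array median centring moved the median member ratio to 0.2081 in the nucleus accumbens, 0.0937 in the prefrontal medial cortex and -0.1722 in the hippocampus (7 of 90 above 0), and WHP in Cy5 alone moved the hippocampal one to -0.0273. With 1 pool pair left out the medians ranged from 0.061 to 0.1434, 0.0108 to 0.0544 and -0.0087 to 0.0029. Signs turned, none past the test, with median centring for Mrps35 (0.0474) and Mrpl54 (0.093) in the nucleus accumbens and Mrpl16 (-0.0204) and Mrpl11 (-0.0387) in the hippocampus. With WHP in Cy5 alone they turned for 1 Mrps21 probe in the nucleus accumbens (0.0422), Mrps35 in the prefrontal medial cortex (8e-04), Mrpl11 in the hippocampus (-0.048) and Mrpl9 in the mean (-0.072), and for 1 Mrps2 probe past the test (-0.1229). With WHP in Cy3 alone they turned for Mrpl42 in the prefrontal medial cortex (-0.0121) and, in the mean, 1 probe each of Mrpl40 (0.0684) and Mrpl35 (-0.012). The same Mrpl40 probe turned with no background subtraction (0.0019) and backgrounds replaced (0.0028), and ranged from -0.0299 to 0.0145 with 1 pool pair left out. The Mrpl9 probe ranged from -6e-04 to 0.0311.

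Levels depended on scaling. Median centring called 0 members between nucleus accumbens and prefrontal medial cortex (39 reported), 24 between hippocampus and nucleus accumbens (65 reported; 75 above 0, median 0.3852) and 38 between hippocampus and prefrontal medial cortex (58 reported; 79 above 0, median 0.5822), and moved the first median to 0.1227. With median centring 6.01%, 45.8% and 48.3% of all probes passed, against 52.1%, 76.4% and 74.1% as reported. The medians of all probes were then 0.0145, 0.1112 and 0.172. Processed signals gave member medians of 0.0894 and 0.1825 for the hippocampal differences, against 0.018 and 0.109 for all probes. With 1 pool pair left out the member medians of these differences ranged from -0.051 to -0.0043 and from 0.0066 to 0.0333.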
